A study of Oryzias latipes with 15 samples.

Results

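The comparison described here set the testes of medaka (Oryzias latipes, a small laboratory fish) exposed to 10 mg/L potassium perchlorate (KClO4) together with 3 mg/L vitamin C against the testes of control fish, which had 0 mg/L KClO4. The 3 libraries of each group were taken by their labels, so 6 of the 15 libraries of the study carried the comparison, and all genes were examined. The other groups were 10 mg/L KClO4 without the vitamin (the high dose), 3 mg/L vitamin C alone, and a low dose of 0.01 mg/L KClO4, each with 3 libraries. The high dose and vitamin C alone are given beside the comparison, the low dose entered the shared estimate of spread. The study's title states its question, whether vitamin C lessens what perchlorate does to spermatogenesis, and this comparison asks which transcripts still differed from control when both were given. The labels call the libraries biological replicates and say nothing of strain, age, length of exposure or fish per library, so the p-values measure the spread between these libraries.

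Perchlorate competes with iodide for the sodium iodide symporter and is best known for lowering the iodide supply of the thyroid. Vitamin C is a reducing agent and the cofactor of a family of dioxygenases that includes collagen prolyl hydroxylases and the TET enzymes of DNA demethylation. In the fish testis, germ cells divide and enter meiosis inside cysts formed by Sertoli cells, while Leydig cells between the tubules make androgens.

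Values are normalised read counts, as deposited. The depth was 21.3, 14.1 and 10.5 M reads in the high dose with vitamin C and 8.79, 7.82 and 13.02 M reads in control. The testis was recognisable in both groups: the summed level of the spermatid and sperm markers was 63470 to 65517 with perchlorate and vitamin C and 64222 to 84472 in control. The sum of the Sertoli markers was 21504 to 22652 with perchlorate and vitamin C and 25033 to 26413 in control. A sum is set mainly by its most abundant members. Of the 18 Sertoli markers tested, 15 had positive and 3 negative log2 fold changes over control (median 0.26). The libraries were not uniform. On the first principal component, which held 57.0% of the variance of the 12 libraries other than the low dose, replicate 1 of the high dose with vitamin C lay at -5.25 and replicates 2 and 3 at 23.9 and 20.3. Control replicates 1 and 2 lay at -74.1 and -81.2 and control replicate 3 at -34.2.

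**Figure D1:**
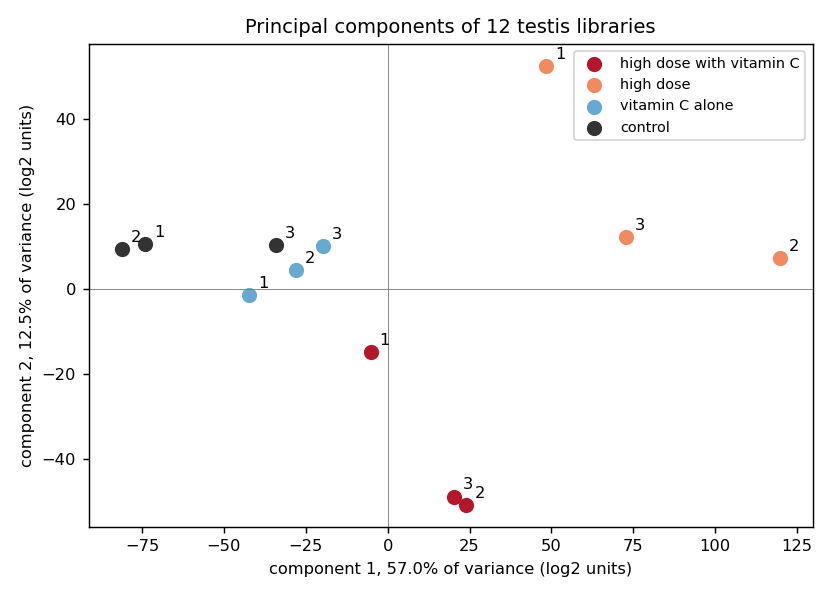
Principal components of log2(normalised read count + 1) in 12 libraries, with component 1 on the x axis, component 2 on the y axis and replicate numbers beside the points. On component 1 the high dose with vitamin C (-5.25 to 23.9) lay between the high dose (48.3 to 120) and control (-81.2 to -34.2), and on component 2 its libraries were the lowest (-50.9 to -15.0).

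Genes of the liver's secreted plasma proteins had the largest rises among genes with a symbol in the testes given perchlorate and vitamin C. Egg coat genes and the quinone reductase nqo1 rose as well. Spliceosome and small RNA pathway genes were among those that fell by modest amounts. Of 17778 genes tested, 643 (3.62%) differed from control at an adjusted p below 0.05, 419 higher (2.36%) and 224 lower (1.26%). The median log2 fold change of the genes called was 2.25 among the higher ones and -1.002 among the lower ones, and 398 of the higher and 113 of the lower passed 2-fold. The groups did not overlap for 418 of the 419 higher genes and for all 224 lower ones, against 17.6% of all genes tested that lay wholly above control and 22.0% that lay wholly below. For the high dose alone, set against the same 3 control libraries, 38.7% of the genes were called, 3248 genes (18.3%) were higher and 3638 (20.5%) lower.

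The rises and falls came from different parts of the expression range. The median control level of the higher genes was 8.93 normalised reads, that of the lower genes 518 and that of all genes tested 165. Below a control mean of 10, where a gene could pass the filter on low values only through higher values in some other group, 226 of 1654 genes were called higher and 0 lower (median log2 1.23 with perchlorate and vitamin C, 2.07 at the high dose). At a control mean of 1000 or more, 4 of 2341 were called higher and 58 lower, with medians of -0.21 with perchlorate and vitamin C and -0.40 at the high dose. A gene symbol was present for 50.8% of the higher genes, 78.1% of the lower genes and 66.6% of all genes tested.

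**Figure D2:**
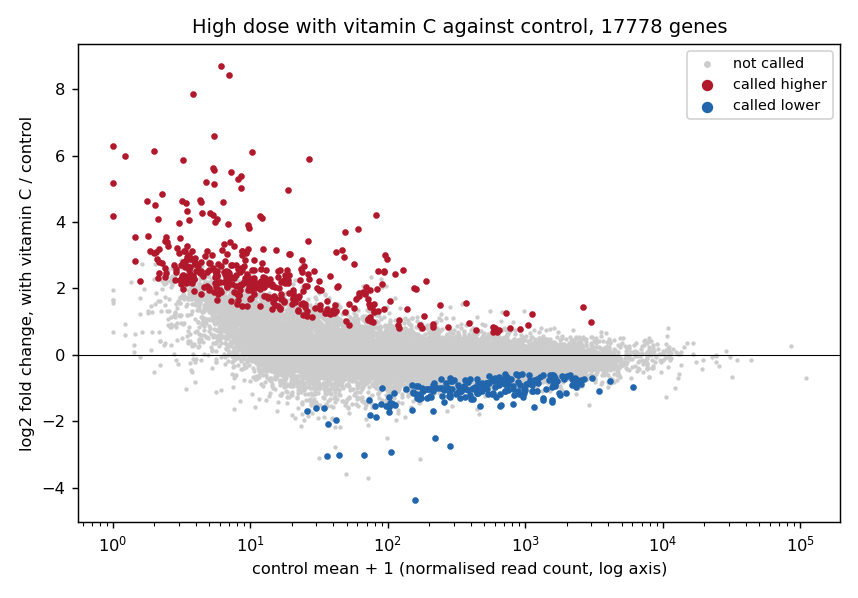
Log2 fold change of the high dose with vitamin C over control (y axis) against the control mean plus 1 in normalised read counts (x axis, log scale), 1 point per gene tested. The 419 genes called higher gather at low control levels (median 8.93) and the 224 called lower at high ones (median 518).

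The number of calls rested on few libraries and on which libraries set the spread. Without replicate 2 or 3 of the high dose with vitamin C, 44 and 48 genes were called higher and 1 and 1 lower. Without control replicate 1 or 2, the counts were 64 and 67 higher and 2 and 4 lower. Without replicate 1 of that group the counts were 409 and 225, and without control replicate 3 they were 609 and 528. When the low dose libraries were left out of the fit, 1402 genes were higher and 1561 lower. Scaling the libraries on abundant genes, the 4696 whose control mean reached 500, moved the median of all genes from -0.05 to 0.16 and left 559 higher and 74 lower, so that 88.3% of the calls were rises in place of 65.2%. Of 86 genes described here as called, 13 were called under every alternative that tested them, and the other 73 lost the call under at least 1. The 13 were 8 genes of plasma proteins (apoa2, c3-1, c3-2, fgb, fga, cfbl, c9 and apoa1b), 2 genes without a symbol described with them, sox1b and 2 entries of 5S ribosomal RNA.

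Plasma protein genes, which hepatocytes make for secretion into blood, formed the most pronounced rise. Apoa2, an apolipoprotein of high density lipoprotein particles (ENSORLG00000024993), had 381, 1678 and 479 normalised reads in the high dose with vitamin C, 25.9, 22.5 and 63.8 in the high dose, 15.3, 10.95 and 27.1 in vitamin C alone and 6.36, 12.5 and 8.71 in control. The 3 libraries with perchlorate and vitamin C lay above every other library shown, and replicate 2 was the highest. The log2 fold change over control was 6.096 ± 0.52 (standard error, as throughout; adjusted p = 1.58e-05), and it lay between 5.43 to 6.61 under the alternatives. Fold changes were computed on log2(value + 1), which understates the change of genes with few reads.

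The complement component c3-1, the central protein of the complement cascade, had 840.003, 3647 and 996 reads in the high dose with vitamin C, against 66.1, 50.1 and 96.7 in the high dose, 33.6, 32.9 and 41.3 in vitamin C alone and 18.03, 16.2 and 42.2 in control. Its log2 fold change over control was 5.91 ± 0.47 (adjusted p = 7.9e-06). Apoa1b, the main apolipoprotein of high density lipoprotein, had 806, 3485 and 1189 reads in the high dose with vitamin C, against 161, 89.3 and 212 in the high dose and 73.2, 79.7 and 89.8 in control (4.20 ± 0.44, adjusted p = 9.63e-05). Neither gene overlapped between the groups. The fibrinogen chains, which polymerise into the fibrin of blood clots, did the same. The gene fgb had 133, 594 and 169.9 reads with perchlorate and vitamin C and 2.12, 7.48 and 3.35 in control (log2 5.62 ± 0.58), and fga had 156, 613 and 184 reads with perchlorate and vitamin C and 4.24, 7.48 and 10.7 in control (log2 5.02 ± 0.57).

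Further plasma protein genes that rose were the complement genes cfbl (log2 5.28 ± 0.59), c9, a component of the membrane attack complex (log2 5.16 ± 0.67), and c3-2 (log2 3.44 ± 0.47). Tbt-bp1, a tributyltin-binding protein of fish blood, rose by log2 4.13 ± 0.66, and ceruloplasmin (cp), the copper carrier of plasma, by log2 3.10 ± 0.75. Control replicate 3 held 78.4 cp reads, above its fellow libraries at 17.0 and 27.4. Coagulation factor II (f2, prothrombin) had 138, 517 and 202 reads in the high dose with vitamin C, against 74.7, 91.8 and 111 in the high dose and 76.4, 64.8 and 54.9 in control (log2 1.89 ± 0.40, adjusted p = 0.0199). The list of liver and plasma markers, which holds neither c3-1 nor cfbl, had 27 tested members of 35. Of the 27, 9 rose, 0 fell and 18 did not pass the test, where 2.36% of all genes were called higher. The median log2 fold change was 1.75 beside -0.05 over all genes tested. The filter used the mean over all 15 libraries, so members low elsewhere could be tested through this group alone, which favours rises. The means of fgb were 299 in the high dose with vitamin C, 16.7 in the high dose, 8.52 in the low dose, 6.08 in vitamin C alone and 4.32 in control. The other risers of that list were haemopexin hpxa (log2 2.999) and the C1 inhibitor serping1 (log2 1.94), which like f2 were picked for naming after their values were seen. Transferrin (tfa), also picked in that way, had 1042, 2868 and 1451 reads with perchlorate and vitamin C and 597, 594 and 834 in control without passing the test (log2 1.29 ± 0.38, adjusted p = 0.0687).

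These transcripts varied together within the group. In 24 of the 27 list members tested, replicate 2 of the high dose with vitamin C was the highest of the 6 libraries. The ratio of replicate 2 to replicate 1 was 4.40 for apoa2, 4.34 for c3-1, 4.48 for fgb, 3.94 for fga, 4.02 for c9 and 4.33 for apoa1b. Replicate 1, the lowest of its group for 20 of the 27, still held 41.5 times the control mean of apoa2, 33.0 times that of c3-1 and 9.96 times that of apoa1b. A like ratio went with the largest rises in the whole table. Of 40 genes called higher with a log2 fold change of 4 or more, a bound set after the values were seen, 25 had no symbol. Of the 40, 35 had at least 3 times as many reads in replicate 2 as in replicate 1, as had 164 of all 17778 genes tested. The complement protease gene c1r was 1 of them, with 22.6, 97.7 and 30.2 reads in the high dose with vitamin C and 1.06, 0 and 2.01 in control. The furthest of all was ENSORLG00000028583, with 1246, 5707 and 1413 reads in the high dose with vitamin C, 31.6, 16.1 and 23.4 in the high dose and 5.3, 1.25 and 8.71 in control (log2 8.71 ± 0.65, adjusted p = 4.3e-06). Next came ENSORLG00000024409, whose values were close to these in every library (log2 8.44 ± 0.58). The files give neither of them a name.

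The summed level of all listed liver markers was 9580, 23191 and 13765 with perchlorate and vitamin C, 6892 to 10024 at the high dose, 5537 to 6236 with vitamin C alone and 6245 to 9149 in control. Of the 35 markers, 0 were at 0 in all libraries of either group. The part that liver tissue or blood in the samples had in this rise was not tested. In bulk tissue, more cells of a type and more RNA per cell cannot be told apart. Leaving out 1 library at a time, the number of list members called higher was 5 to 12 (5 without replicate 2 of the high dose with vitamin C, 5 without control replicate 2, and 12 without control replicate 3).

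**Figure D3:**
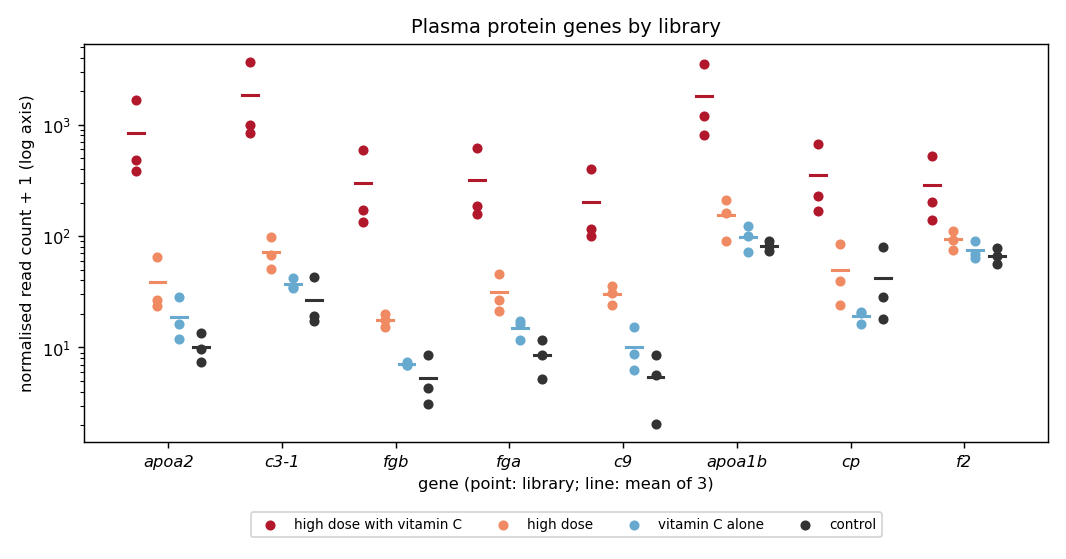
Normalised read counts plus 1 (log axis) of 8 plasma protein genes in the 12 libraries of 4 groups; points are libraries and lines are means of 3. The points of the high dose with vitamin C lie above all others for each gene, with apoa2 at 381 to 1678 against 6.36 to 12.5 in control.

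Against the high dose itself, some of the plasma genes were also higher. Others did not differ by the test, among them hpxa (log2 0.68 ± 0.51, adjusted p = 0.39), serping1 (log2 0.71 ± 0.39, adjusted p = 0.246) and tfa (log2 0.72 ± 0.38, adjusted p = 0.231). The log2 difference between the high dose with vitamin C and the high dose was 4.39 ± 0.47 for c3-1 (adjusted p = 0.000154), 4.29 ± 0.52 for apoa2 (adjusted p = 0.000447) and 3.36 ± 0.44 for apoa1b (adjusted p = 0.000637). Of the 27 list members, 9 passed the test upward in that comparison, in which 7.74% of all genes did, and 18 did not pass. The list median was 0.58, beside -0.10 over all genes tested. Vitamin C alone did not differ from control by the test for any of the 27, but it did so for only 0.405% of all genes tested. A list of this size would hold few calls at that share.

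Egg coat and oocyte genes were the next group above control, and they were also high without perchlorate. Alveolin (alv), the protease of the medaka egg's cortical granules that hardens the egg envelope, had 174, 188 and 140.5 reads in the high dose with vitamin C, 161, 128 and 94.6 in the high dose, 256, 247 and 379 in vitamin C alone and 28.6, 27.4 and 27.5 in control. The 9 treated libraries shown lay above all control libraries, with vitamin C alone the highest. The log2 fold change over control was 2.53 ± 0.47 with perchlorate and vitamin C (adjusted p = 0.012), 2.13 at the high dose and 3.33 ± 0.47 with vitamin C alone (adjusted p = 0.00568), all against the same control libraries. The egg coat gene zp3b had 112, 169 and 133 reads in the high dose with vitamin C, 130.3, 146 and 149.8 in vitamin C alone and 21.2, 32.4 and 21.4 in control (log2 2.43 ± 0.47, adjusted p = 0.0164).

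Zar1, a maternal RNA-binding protein needed for oocyte development, had 59.8, 41.97 and 44.1 reads in the high dose with vitamin C, 22.98, 12.2 and 10.6 in the high dose, 89.04, 73.4 and 114 in vitamin C alone and 8.48, 11.2 and 9.38 in control. Its level at the high dose was near control (log2 0.54 ± 0.47, adjusted p = 0.38), whereas the high dose with vitamin C lay above the high dose by log2 1.67 ± 0.47 (adjusted p = 0.0346) and above control by 2.20 ± 0.47 (adjusted p = 0.0204). The oocyte gene org had 284, 296 and 257 reads with perchlorate and vitamin C and 67.9, 78.5 and 56.96 in control (log2 2.04 ± 0.49). Among genes picked after their values were seen, the egg coat genes zp3f.1 (log2 2.52 ± 0.63) and zpax1 (log2 2.54 ± 0.53) also rose. Bmp15, a growth factor of oocytes picked likewise, had 30.3, 25.2 and 14.7 reads with perchlorate and vitamin C and 5.3, 6.23 and 10.1 in control without passing the test (adjusted p = 0.117). The poly(A)-binding protein gene pabpc1l fell (log2 -0.64 ± 0.17).

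Of 15 oocyte markers tested, 5 rose, 1 fell and 9 did not pass the test, with a median log2 fold change of 1.51. The shares of all genes were 2.36% higher and 1.26% lower. Their summed level, 7953 to 8583 in the high dose with vitamin C and 7254 to 9571 in control, overlapped between the groups. In the low dose libraries the same sum was 35831 to 322333, and these libraries contribute to the shared spread: 8 of the 15 were called higher when they were left out. No oocyte marker was called higher without replicate 2 or 3 of the high dose with vitamin C, or without control replicate 1 or 2, while 3 were without replicate 1 of that group and 3 without control replicate 3.

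Nqo1, the quinone reductase that is a standard target of the oxidative stress factor Nrf2, had 455, 579.8 and 433 reads in the high dose with vitamin C, 373, 301 and 214 in the high dose, 550.1, 540.5 and 938 in vitamin C alone and 81.7, 85.97 and 83.1 in control. No treated library of these 3 groups overlapped control, in which the 3 values were close together. The log2 fold change over control was 2.52 ± 0.51 with perchlorate and vitamin C (adjusted p = 0.0185), 1.78 ± 0.51 at the high dose (adjusted p = 0.0132) and 2.95 ± 0.51 with vitamin C alone (adjusted p = 0.0185). The lysosomal protease gene ctss had 194, 201 and 154 reads in the high dose with vitamin C, 269, 231 and 415 in vitamin C alone and 27.6, 54.8 and 27.5 in control (log2 2.36 ± 0.61, adjusted p = 0.0457). Eno2, the neuronal form of the glycolytic enzyme enolase, had 71.5, 32.98 and 24.5 reads in the high dose with vitamin C, 76.7, 68.9 and 82.6 in vitamin C alone and 6.36, 4.98 and 17.4 in control (log2 2.09 ± 0.54). Replicate 1 of the high dose with vitamin C lay among the eno2 values of vitamin C alone.

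**Figure D4:**
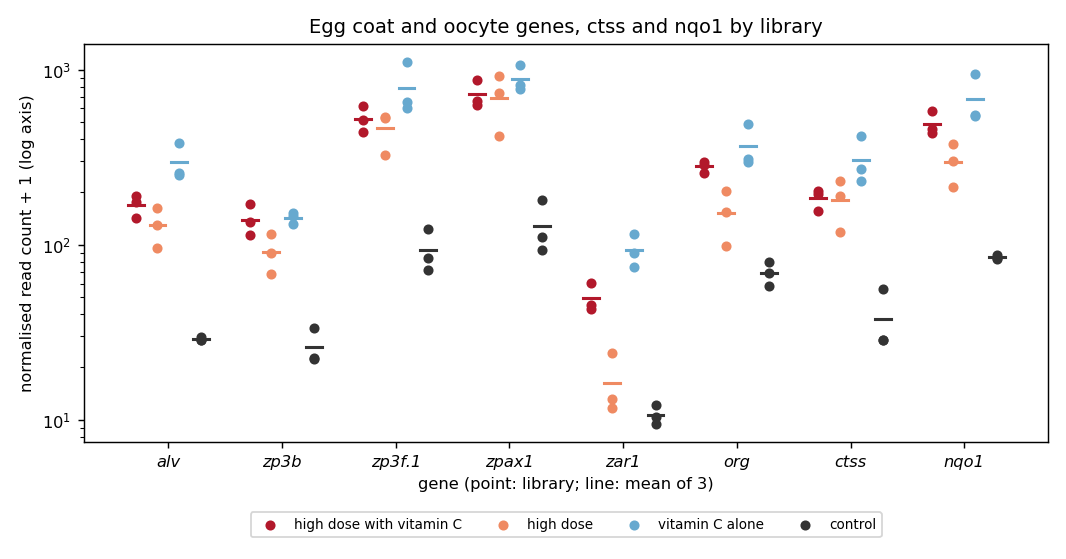
Normalised read counts plus 1 (log axis) of 6 egg coat and oocyte genes, ctss and nqo1 in the 12 libraries of 4 groups; points are libraries and lines are means of 3. For alv the high dose with vitamin C (140 to 188) and vitamin C alone (247 to 379) lie above control (27.4 to 28.6). For nqo1 both groups also lie above control (433 to 580 and 540 to 938 against 81.7 to 86.0), but their ranges overlap.

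A further set of rises concerned genes with few reads in control that were called higher at the high dose too. Sox1b, a SoxB1 transcription factor of neural progenitors, had 42.8, 101 and 183 reads in the high dose with vitamin C, 57.5, 324 and 123 in the high dose, 34.2, 35.4 and 27.1 in vitamin C alone and 3.18, 3.74 and 10.7 in control. It did not overlap with control (log2 3.93 ± 0.60, adjusted p = 0.00348). Plppr3a, a lipid phosphatase-related membrane protein, rose by log2 3.14 ± 0.65 and by 4.42 at the high dose. The latrophilin gene ADGRL2 (log2 3.13 ± 0.74) and the protocadherin gene PCDH7 (log2 3.11 ± 0.52) rose too, and their fold changes at the high dose were 4.19 and 4.001. The transcription factor genes ebf3a (log2 2.78), irx3a (log2 2.58) and fezf1 (log2 2.56) and the netrin gene NTNG1 (log2 2.57), picked after their values were seen, had means of 56.5 to 82.3 reads with perchlorate and vitamin C and of 9.20 to 11.2 in control. For none of these 8 genes did the high dose with vitamin C differ from the high dose by the test (adjusted p = 0.068 for NTNG1, the lowest). Of 15 neuron markers tested, 0 were called in either direction, where 3.62% of all genes were. Their median log2 fold change was 0.93, and -0.16 over those with a mean of at least 50.

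Entries annotated as 5S ribosomal RNA, a small RNA of the large ribosomal subunit, were higher. There are 27 such entries, of which 6 were tested, 5 rose and 0 fell, where 2.36% of all genes were called higher. The control means of the risers ENSORLG00000021149 and ENSORLG00000021326 were 3.39 and 4.50. These entries could pass the filter on low values only through other groups, which favours rises. The entry ENSORLG00000029102 had 379.8, 633 and 938 reads in the high dose with vitamin C, 428, 1166 and 395 in the high dose, 112, 216 and 203 in vitamin C alone and 29.7, 61.1 and 52.9 in control. All 9 values of the treated groups shown exceeded control (log2 3.70 ± 0.41, adjusted p = 0.000171). The entry ENSORLG00000021486 rose by log2 3.02 ± 0.44, and ENSORLG00000025066, with 43.6, 53.4 and 44.1 reads in the high dose with vitamin C and 46.7, 27.4 and 48.2 in control, did not pass the test (log2 0.24 ± 0.30). Entries of a multigene family can share reads, so the split of reads between them is uncertain.

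Markers of other tissues moved to different degrees. Of 12 exocrine pancreas markers tested, 3 rose, all coding for digestive proteases, and 0 fell, where 2.36% of all genes were called higher. Their median log2 was 1.36. The filter on the mean over all libraries could admit members low in control through the groups where they were high, which favours rises. The means of ctrl were 23.1 in the high dose with vitamin C, 40.9 in the high dose, 9.71 in the low dose, 8.31 in vitamin C alone and 2.59 in control. All genes with a control mean below 10 had a median log2 of 1.23. Ctrb.3 had 30.3, 71.3 and 72.7 reads with perchlorate and vitamin C against 8.48, 13.7 and 13.4 in control (log2 2.13 ± 0.38). CELA1 had 59.8, 88.7 and 106 reads with perchlorate and vitamin C against 16.97, 14.95 and 36.9 in control (log2 1.92 ± 0.35). The third, ctrl, had 15.4, 22.2 and 31.8 reads with perchlorate and vitamin C against 0, 3.74 and 4.02 in control (log2 3.01 ± 0.66). At the high dose 10 of the 12 were called higher, where 18.3% of all genes were. CELA1 had 253, 202 and 147 reads at the high dose, above the high dose with vitamin C by the test (log2 -1.23 ± 0.35, adjusted p = 0.0377). The summed pancreas level was 642, 1447 and 1390 with perchlorate and vitamin C and 612 to 771 in control, so replicate 1 lay within the control range. Pancreas calls went to 0 without replicate 2 or 3 of the high dose with vitamin C or control replicate 1, to 1 without control replicate 2, and to 5 without control replicate 3.

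Kidney and gut epithelium markers, many of them high at the high dose, mostly did not differ from control by the test. Slc12a3, the sodium chloride cotransporter of the kidney's distal tubule, had 33.5, 38.4 and 32.7 reads in the high dose with vitamin C, 2606, 1228 and 2550.1 in the high dose and 58.3, 26.2 and 329.7 in control. The high dose with vitamin C did not differ from control by the test (log2 -1.18 ± 0.61, adjusted p = 0.27) and lay below the high dose by log2 -5.82 ± 0.61 (adjusted p = 0.000105). Cdh17, a cadherin of gut and kidney epithelium, had 47.7, 36.6 and 48.2 reads in the high dose with vitamin C, 908, 715 and 1227 in the high dose and 71.05, 72.3 and 356 in control. It lay below every control library without passing the test (log2 -1.46, adjusted p = 0.114). Under 5 of 20 alternatives, DESeq2 and the replicate block among them, cdh17 was called lower. Fabp6, the ileal bile acid binding protein, had 15.4, 32.4 and 17.1 reads in the high dose with vitamin C, 175, 298 and 503 in the high dose and 9.54, 6.23 and 36.9 in control. For both genes every library of the high dose exceeded every library of the other 2 groups. Malb had 2.42, 5.4 and 2.45 reads in the high dose with vitamin C, 181, 203 and 216 in the high dose and 4.24, 2.49 and 27.5 in control. These 4 genes were picked after their values were seen. Of 21 markers tested, 2 rose against control, slc22a6l, of the organic anion transporter family (log2 2.62 ± 0.63), and slc20a1a, a phosphate transporter (log2 1.51 ± 0.37), and 0 fell, against 13 higher and 1 lower at the high dose. Of the same 21, 1 was higher and 7 were lower than at the high dose. Among all genes, 2.36% were called higher against control, 18.3% higher at the high dose and 2.64% lower than at the high dose. The summed level was 1121 to 1279 with perchlorate and vitamin C, 4331 to 6295 at the high dose, 1060 to 1167 with vitamin C alone and 1253 to 2210 in control.

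Immune, vessel and muscle markers contributed few calls, and counts of 1 or 2 in lists of these sizes lie close to the 2.36% of all genes called higher. At the high dose 18.3% of all genes were called higher. Of 19 myeloid markers tested 3 rose: lyz, lysozyme, with 36.4, 143 and 47.4 reads against 0, 2.49 and 4.69 in control (log2 4.56 ± 0.84), MPEG1, the pore-forming protein of macrophages (log2 1.94 ± 0.49), and ctss. The lyz ratio of replicate 2 to replicate 1 within the high dose with vitamin C was 3.92, near those of the plasma genes. Among lymphocyte markers 1 of 15 rose, the T-box factor gene tbx21 (log2 1.58 ± 0.40; 11 of 15 at the high dose). Among endothelium markers 1 of 20 rose, sox7 (log2 1.40 ± 0.37; 9 of 20 at the high dose). In the skeletal muscle list 1 of 21 rose, tnnt2a, whose symbol is that of the cardiac troponin T. It had 30.7, 39.6 and 41.6 reads against 7.42, 6.23 and 9.38 in control (log2 2.15 ± 0.35). No red blood cell marker of 13 and no islet marker of 9 passed the test. Early response genes had 2 of 31 higher, the mRNA decay factor zfp36l1a (log2 0.85 ± 0.20) and the AP-1 subunit fosl2 (log2 0.999 ± 0.26). Of 45 interferon and cytokine genes tested 2 rose, including the chemokine ccl25b, with 383, 466 and 353 reads against 168, 193 and 277 in control (log2 0.93 ± 0.22). Without replicate 2 or 3 of the high dose with vitamin C, none of the lists in this paragraph kept a call, and without control replicate 1 or 2 only the muscle list did, with 1.

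Genes that fell did so by smaller amounts. Apoda.2, an apolipoprotein D gene, fell furthest, with 1.62, 6 and 3.27 reads in the high dose with vitamin C, 0, 8.35 and 1.06 in the high dose, 4.72, 0.644 and 2.36 in vitamin C alone and 38.2, 46.1 and 387 in control. Control was scattered, with replicate 3 far above its fellows, and all 9 treated libraries shown were below it (log2 -4.39 ± 0.996, adjusted p = 0.0268). Krt5, a keratin of stratified epithelium, had 36.4, 23.98 and 43.3 reads in the high dose with vitamin C, 299, 299 and 78.7 in the high dose, 57.8, 35.4 and 36.6 in vitamin C alone and 363, 122 and 173 in control. It lay below control (log2 -2.52 ± 0.57, adjusted p = 0.0273) and below the high dose (log2 -2.48 ± 0.57, adjusted p = 0.0137). Krt5 was the 1 gene of 24 skin-type epithelium markers to pass the test against control, where 1.26% of all genes were called lower. A list of this size would hold few calls at that share.

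Most of the other large falls were also called at the high dose; AGBL4 ENSORLG00000028608 was not (log2 -0.53 ± 0.29 at the high dose, adjusted p = 0.165). The dual-specificity protein kinase gene map2k1 had 435, 263 and 203 reads in the high dose with vitamin C, 284, 179.8 and 224 in the high dose and 716, 993 and 709 in control. It was below control by log2 -1.48 ± 0.34 and not different from the high dose by the test (adjusted p = 0.528).

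BIRC6, a large inhibitor of cell death and ubiquitin ligase, had 425, 325 and 363 reads with perchlorate and vitamin C, 244, 142 and 212 at the high dose and 1336, 1395 and 702 in control (log2 -1.56 ± 0.33). PRRC2C, a large RNA granule protein, had 618, 582 and 577 reads with perchlorate and vitamin C, 379, 257 and 309 at the high dose and 1718, 1874 and 1075 in control (log2 -1.35 ± 0.26). DNAH10, a dynein heavy chain of the sperm tail axoneme, had 619, 567 and 486 reads with perchlorate and vitamin C, 445, 268 and 393 at the high dose and 1628, 2029.6 and 1002 in control (log2 -1.42 ± 0.32). Among the groups shown, the libraries of the high dose held the fewest reads of each of the 3 genes. In vitamin C alone the log2 fold changes over control were -1.35 for BIRC6, -1.20 for PRRC2C and -1.22 for DNAH10. These did not pass the test (adjusted p = 0.106, 0.0616 and 0.152). PRRC2C was higher with vitamin C than at the high dose (log2 0.93 ± 0.26, adjusted p = 0.0363). The malic enzyme gene me2 (log2 -1.54 ± 0.31), the kinase gene ptk6b (log2 -1.54 ± 0.33), the ion cotransporter gene slc12a2 (log2 -1.51 ± 0.35), RAI2 (log2 -1.48 ± 0.37), the ribosome biogenesis gene pdcd11 (log2 -1.45 ± 0.38) and the tubulin gene tuba8l5 (log2 -1.69 ± 0.38) fell as well.

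AGBL4 (ENSORLG00000028608), a carboxypeptidase that shortens glutamate side chains of tubulin, had 65.5, 70.1 and 62.9 reads in the high dose with vitamin C, 115, 108 and 125 in the high dose, 69.6, 57.98 and 63.7 in vitamin C alone and 177, 162 and 165 in control. Both groups given vitamin C were low and the high dose lay between them and control (log2 -1.33 ± 0.29, adjusted p = 0.0244). Another entry with that symbol, ENSORLG00000026077, had 434, 476 and 433 reads in the high dose with vitamin C and 384, 444 and 375 in control (log2 0.16 ± 0.30). The nuclear import receptor TNPO2 had 1 entry that fell (ENSORLG00000011763, log2 -1.30 ± 0.29) and 1 just outside the threshold (ENSORLG00000022095, log2 -0.90 ± 0.24, adjusted p = 0.0518).

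Splicing factor genes held the most falls of any list by count. Of 68 mRNA splicing genes tested, 8 fell, 0 rose and 60 did not pass the test, with a median log2 fold change of -0.43. Among all genes tested, 1.26% were called lower and the median was -0.05. Prpf8, the core protein of the spliceosome's catalytic centre, had 1339, 1139 and 1073 reads in the high dose with vitamin C, 764, 655 and 875 in the high dose, 1874, 1527 and 1299 in vitamin C alone and 2552, 2425 and 1995 in control. The 3 libraries with perchlorate and vitamin C lay below every control library and above every library of the high dose. They were below control by log2 -0.97 ± 0.19 (adjusted p = 0.0157) and above the high dose by 0.63 ± 0.19 (adjusted p = 0.0425).

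The spliceosomal GTPase eftud2 followed the same order, with 706, 497 and 492 reads in the high dose with vitamin C, 325, 253 and 283 in the high dose and 1299, 1319 and 1008 in control (log2 -1.11 ± 0.23). The 3' splice site factor u2af2a also did so (log2 -1.09 ± 0.24 against control and 0.96 ± 0.24 against the high dose). Snrnp200, the helicase that unwinds U4 from U6, had 1149.5, 821 and 702 reads in the high dose with vitamin C, 1166, 728 and 839.8 in the high dose and 2083, 2218 and 1576 in control (log2 -1.15 ± 0.24 against control). Its perchlorate groups did not differ by the test. At the high dose 35 of the 68 were called lower, where 20.5% of all genes were. In the high dose with vitamin C 13 of the 68 were higher than in the high dose, where 7.74% of all genes were. No splicing gene was called lower without replicate 2 or 3 of the high dose with vitamin C, or without control replicate 1 or 2. With the low dose libraries left out of the fit 31 were called, with quantile normalisation 0, and with scaling on abundant genes there were 4.

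Germ cell small RNA genes were a smaller case. Piwil2, a PIWI protein of the piRNA pathway that silences transposons, had 1593, 1171 and 1203 reads in the high dose with vitamin C, 1813, 1255 and 1406 in the high dose, 1947, 1906 and 1851 in vitamin C alone and 2412, 2547 and 2006 in control. It did not overlap with control (log2 -0.82 ± 0.17, adjusted p = 0.02). Tdrd9, the helicase of the same pathway, had 417, 392 and 314 reads in the high dose with vitamin C and 666, 718 and 619.8 in control (log2 -0.84 ± 0.20, adjusted p = 0.0326). These were the 2 genes called lower among 16 tested, with 0 higher (median log2 -0.34; 9 lower at the high dose). The shares of all genes called lower were 1.26%, and 20.5% at the high dose. Neither was called without replicate 2 or 3 of the high dose with vitamin C or control replicate 1 or 2. Piwil1 had 9598, 6786 and 7329.5 reads with perchlorate and vitamin C and 13058, 13723 and 11574 in control without passing the test (log2 -0.71 ± 0.25, adjusted p = 0.11).

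Genes of the cell cycle, genome maintenance and chromatin showed few calls, all downward, at shares to be read against the 1.26% of all genes called lower and the 20.5% called lower at the high dose. Among 63 cell cycle genes 3 fell, namely the kinase gene cdk2 (log2 -0.78 ± 0.19), the centriole kinase gene plk4 (log2 -0.99 ± 0.26) and the cytokinesis gene racgap1 (log2 -1.15 ± 0.29). Cdk2 had 1068, 899 and 964 reads in the high dose with vitamin C and 1683, 1884 and 1489 in control. Of 78 DNA repair genes 1 fell, nbn of the double strand break sensing MRN complex (log2 -0.84 ± 0.21), against 41 at the high dose. Of 55 DNA replication genes 1 fell, the origin recognition subunit orc3 (log2 -0.95 ± 0.23), against 22 at the high dose. The repair and replication counts against control were near the share of all genes. The list medians were -0.33, -0.24 and -0.26.

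Ezh2, the methyltransferase of histone H3 that marks repressed chromatin, had 1024, 878 and 852 reads in the high dose with vitamin C, 678, 582 and 742 in the high dose and 1793, 1842 and 1277 in control, again in that intermediate position (log2 -0.82 ± 0.19, adjusted p = 0.0292). The demethylase gene kdm5c had 695, 664 and 727 reads in the high dose with vitamin C, 465, 405 and 440.1 in the high dose and 1057, 1189.9 and 933 in control (log2 -0.60 ± 0.15). It lay above the high dose by the test (log2 0.67 ± 0.15, adjusted p = 0.0135). They were the 2 falls among 71 histone enzyme genes, against 27 falls at the high dose. The list median of -0.18 turned to 0.04 under scaling on abundant genes. Of 32 DNA methylation genes 0 passed the test against control (median -0.27). Dnmt1, the maintenance methyltransferase, had 774, 709 and 684 reads with perchlorate and vitamin C and 1088, 994 and 880.5 in control (log2 -0.45 ± 0.24, adjusted p = 0.297). TET1, which oxidises 5-methylcytosine, had 1084, 1025 and 1040.4 reads with perchlorate and vitamin C and 1513, 1245 and 1086 in control (log2 -0.27 ± 0.30, adjusted p = 0.639).

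Antioxidant and metabolic genes gave isolated calls, where 2.36% of all genes were called higher and 1.26% lower. Of 54 antioxidant genes, nqo1 rose and 2 fell. The metal-responsive factor mtf1 fell, with 239, 187 and 181 reads in the high dose with vitamin C, 132, 113 and 115 in the high dose and 464, 557 and 313 in control (log2 -1.10 ± 0.22). So did gclc, the rate-limiting enzyme of glutathione synthesis (log2 -0.63 ± 0.16). The median of the list was -0.03 and turned positive under quantile normalisation, edgeR's TMM and scaling on abundant genes. Cytosolic superoxide dismutase sod1 had 7198, 5365 and 5144 reads with perchlorate and vitamin C and 6213, 7066 and 6874 in control (log2 -0.20 ± 0.21, adjusted p = 0.618). Catalase (cat) had 486, 618 and 553 reads with perchlorate and vitamin C and 562, 577 and 519 in control (log2 -0.01 ± 0.15, adjusted p = 0.987). The groups overlapped, and both estimates turned to the other sign under some alternatives. ACLY, which makes cytosolic acetyl-CoA, fell by log2 -0.70 ± 0.16 and acaca, the first enzyme of fatty acid synthesis, by -0.88 ± 0.23, 2 falls among 48 cholesterol and fatty acid synthesis genes. The proteasome subunit gene psmd6, with 80.000, 70.7 and 60.4 reads against 188, 186 and 149 in control (log2 -1.29 ± 0.27), was the 1 call among 47 proteasome genes.

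In the somatic cells of the testis, calls were few. The 2 Sertoli markers of 18 that passed the test rose, where 2.36% of all genes were called higher. The list median log2 was 0.26, with 15 fold changes positive and 3 negative. Nr0b1, the orphan nuclear receptor DAX1, had 141, 250.02 and 309.5 reads in the high dose with vitamin C, 138, 179 and 151 in the high dose and 81.7, 62.3 and 89.1 in control (log2 1.52 ± 0.27, adjusted p = 0.0116). The prostaglandin D synthase gene ptgdsb.1 had 489, 1088 and 573 reads in the high dose with vitamin C, 707, 919.5 and 585 in the high dose and 232, 235 and 249 in control (log2 1.49 ± 0.31, adjusted p = 0.0198). Neither overlapped with control. The anti-Müllerian hormone entry ENSORLG00000015951 had 7908, 5005 and 5516 reads in the high dose with vitamin C, 5679, 3372 and 4208 in the high dose and 12756, 14333 and 9639.7 in control. The high dose with vitamin C did not overlap with control, and the test was just missed (log2 -1.004 ± 0.27, adjusted p = 0.0509). The other amh entry, ENSORLG00000005044, had 369, 386 and 432 reads in the high dose with vitamin C and 406, 424 and 313 in control (log2 0.06 ± 0.21), which overlapped.

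Dmrt1, the transcription factor that maintains male identity in the gonad, had 1126, 1909 and 1815 reads in the high dose with vitamin C, 615, 658 and 884 in the high dose and 959, 849.7 and 952 in control. All libraries with perchlorate and vitamin C exceeded control, without passing the test (log2 0.78 ± 0.38, adjusted p = 0.243). Against the high dose the adjusted p was 0.0617, and 0.0486 in the fit blocked by replicate number. Gsdf, the Sertoli growth factor downstream of the medaka sex gene, had 8666, 9243 and 8357 reads with perchlorate and vitamin C and 7637, 7220.2 and 9309 in control, which overlapped (log2 0.13 ± 0.24). The follicle-stimulating hormone receptor fshr had 600.002, 685 and 618 reads with perchlorate and vitamin C and 756, 758 and 724 in control (log2 -0.24 ± 0.24, adjusted p = 0.608). The luteinising hormone receptor lhcgr had 24.6, 30.6 and 26.9 reads with perchlorate and vitamin C and 29.7, 34.9 and 40.2 in control (log2 -0.33 ± 0.31, adjusted p = 0.575).

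Star, which carries cholesterol into mitochondria for steroid synthesis, had 434, 253 and 222 reads in the high dose with vitamin C, 621, 415 and 885 in the high dose and 398, 495 and 411 in control. It overlapped with control (log2 -0.57 ± 0.27, adjusted p = 0.229) and was below the high dose by log2 -1.07 ± 0.27 (adjusted p = 0.0212). Hsd17b3, an enzyme of testosterone synthesis, had 249, 264 and 264 reads with perchlorate and vitamin C and 174, 188 and 274 in control (log2 0.32 ± 0.20, adjusted p = 0.381). In all, 0 of 20 Leydig and steroid genes passed the test in either direction. The sodium iodide symporter slc5a5 had 276, 328 and 336 reads with perchlorate and vitamin C and 261, 278 and 265 in control (log2 0.22 ± 0.34, adjusted p = 0.759), and 0 of 24 thyroid genes passed. The vitamin C transporter SLC23A2 had 50.9, 44.97 and 57.98 reads with perchlorate and vitamin C and 68.9, 72.3 and 59.6 in control (log2 -0.38 ± 0.35, adjusted p = 0.571). Of the vitamin C dependent enzyme genes, 0 of 32 passed, as did 0 of 28 collagen genes. Over all genes 3.62% were called against control, so each list in this paragraph would hold few calls at that share.

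Meiotic, spermatid and sperm genes mostly lay below control without passing the test, while most spermatogonial markers did not lie below it. All 15 meiotic genes tested had negative log2 fold changes (median -0.42), 0 were called, and 6 were called lower at the high dose. The share of all genes called lower at the high dose was 20.5%. The recombinase gene dmc1 had 3011, 2990.01 and 3343 reads in the high dose with vitamin C, 2517, 2346 and 2426 in the high dose and 3439, 3768 and 3360.4 in control (log2 -0.18 ± 0.26, adjusted p = 0.741). Their summed level was 28105, 19404 and 20578 with perchlorate and vitamin C and 27568 to 32530 in control, so replicate 1 lay within the control range. When the low dose libraries were left out of the fit, 7 of the 15 were called lower. Of 32 spermatid and sperm markers 0 were called (median -0.21, which became 0.01 under scaling on abundant genes), against 1 higher and 7 lower at the high dose. Of 17 spermatogonial markers 1, piwil2, was called, and it was lower (median 0.55, with 11 fold changes positive and 6 negative). At the high dose 9 of them were called higher and 4 lower, where 18.3% of all genes were higher and 20.5% lower. The summed spermatogonial level was 23804, 18092 and 19531 with perchlorate and vitamin C and 20476 to 22770 in control. Replicates 2 and 3 of the high dose with vitamin C thus lay below the control range of that sum. The germ cell helicase gene ddx4 had 15164, 11158 and 12695 reads in the high dose with vitamin C, 8555, 7728 and 8781 in the high dose and 13274, 13390.1 and 11793 in control. It overlapped with control (log2 0.01 ± 0.18, adjusted p = 0.982). Against the high dose ddx4 was higher by log2 0.63 ± 0.18 (adjusted p = 0.0397; 0.0556 in the fit blocked by replicate number).

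Translation and energy genes gave no call against control, where 3.62% of all genes were called, so that lists of these sizes would hold few calls at that share. At the high dose 18.3% of all genes were called higher and 20.5% lower. Of 66 cytosolic ribosomal protein genes 0 passed the test (median log2 0.12), against 29 higher at the high dose. Likewise 0 of 64 mitochondrial ribosome, 0 of 67 oxidative phosphorylation and 0 of 13 mitochondrial genome genes passed. Of 61 heat shock and folding genes 0 passed, against 21 lower at the high dose, and 0 of 32 circadian clock genes, against 3 higher and 10 lower. These zeros came from limma. Over all genes 3876 had an unadjusted p below 0.05 in the comparison with control. With the low dose libraries left out of the fit, 8 heat shock genes were called lower and 3 circadian genes lower and 1 higher.

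**Figure D5:**
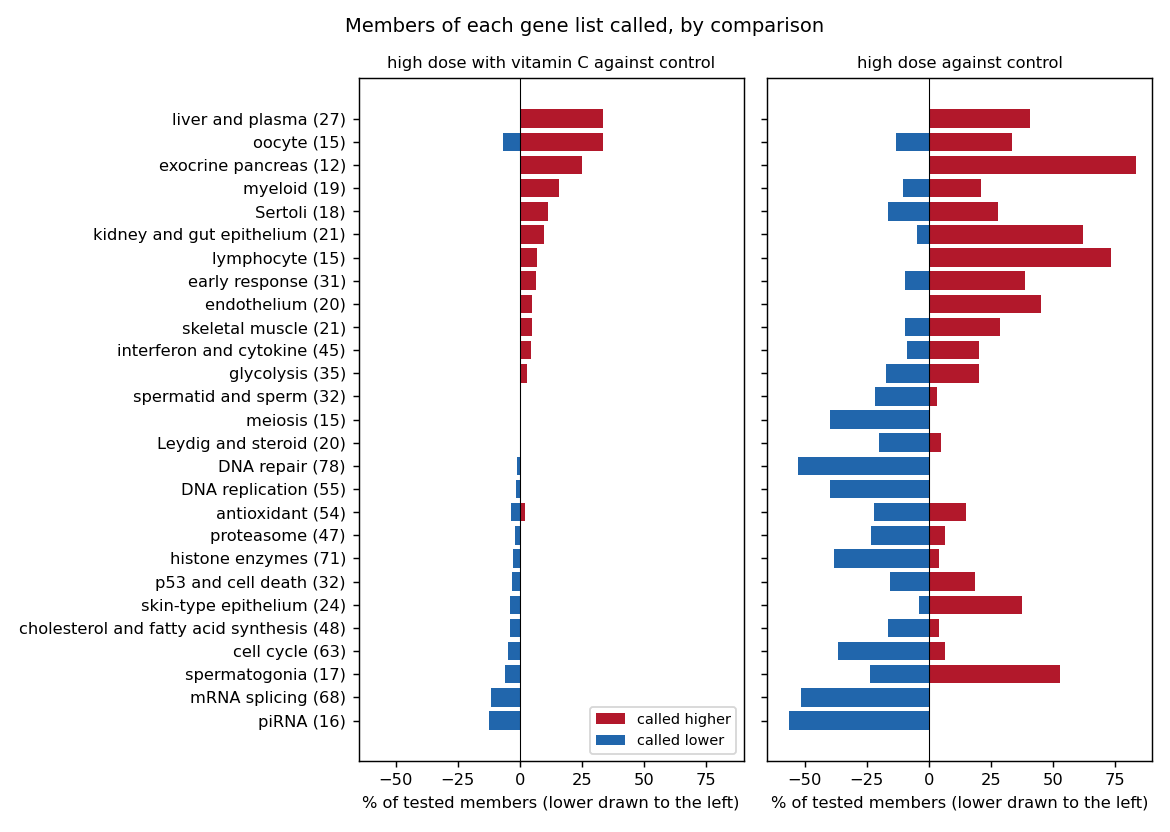
Share of tested list members (in %, x axis) called higher (right) or lower (left) than control, for the high dose with vitamin C (left panel) and the high dose (right panel), which share the 3 control libraries. The number tested is given beside each list. Liver and plasma markers were called higher in 9 of 27 and 11 of 27, mRNA splicing genes lower in 8 of 68 and 35 of 68, and exocrine pancreas markers higher in 3 of 12 and 10 of 12. Of all genes tested, 2.36% and 18.3% were called higher and 1.26% and 20.5% lower.

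Set directly against the high dose, the high dose with vitamin C had 1376 genes higher (7.74%) and 469 lower (2.64%), 10.4% of those tested, or 1184 and 404 in the fit blocked by replicate number. By count, the list with the most higher genes was DNA repair, the longest list, with 17 of 78 higher and 0 lower (median log2 0.13, beside -0.10 over all genes tested), and splicing followed with 13 of 68. The share was larger for liver and plasma markers, at 9 of 27. Whether the effect of the high dose differed with and without vitamin C was tested as an interaction, (high dose with vitamin C minus vitamin C alone) minus (high dose minus control). It was passed by 1436 genes (8.08%), 996 with a positive difference (5.60%) and 440 with a negative one (2.47%). Vitamin C alone differed from control in 54 genes upward (0.304%) and 18 downward (0.101%), and 5 of the 15 oocyte markers were among the genes it raised.

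These counts moved with single libraries as well. The counts against the high dose were 486 higher and 163 lower without replicate 2 of the high dose with vitamin C, 409 and 151 without its replicate 3, and 391 and 168 without replicate 2 of the high dose. The interaction was passed by 311 and 267 genes without replicate 2 or 3 of the high dose with vitamin C, and 440 without replicate 2 of the high dose. It was passed by 255 and 132 without replicate 2 or 3 of vitamin C alone, and 135 and 133 without control replicate 1 or 2. The high dose had 2100 genes above control without its replicate 2 and 2155 without control replicate 2. Under scaling on abundant genes, 53.2% of the calls against the high dose were rises, in place of 74.6%, and 75.2% of the calls of the high dose against control, in place of 47.2%.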

How the data were processed

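RNA was sequenced from 15 testis libraries of 5 groups with 3 replicates each. The values are a signal per gene that the authors deposited, read counts divided by a size factor per library, and their steps returned whole reads for 100% of 345420 values (tolerance 0.001). Reads were handled with fastp 0.23.2, STAR 2.7.7a and DESeq2 1.34.0, per the submitters' processing notes; the genome build, read counter and strand setting were not stated there or in the labels. The 17778 of 23028 genes whose mean over the libraries reached 10 were tested on log2(value + 1) in 1 limma fit (limma 3.58.1, R 4.3.3) over all 15 libraries, with Benjamini-Hochberg adjustment over all genes tested and a threshold of 0.05. A gene is called where it passed, and errors are standard errors. Count tests on the recovered reads were alternatives: edgeR 4.0.16 called 590 genes higher and 200 lower against control, and DESeq2 1.42.0 was also run. Replicates of each group differed by more than sampling noise. The correlations of same-numbered libraries were 0.191, -0.162 and 0.118 between the high dose with vitamin C and control, which the numbers therefore do not pair, and 0.361, 0.198 and 0.124 between the high dose with vitamin C and the high dose, each above the bound of 0.1; there the blocked fit is given where it changed a call. Genes were named by rule: the 15 largest rises and falls among called genes with a symbol, a mean of at least 50 and groups that do not overlap, up to 4 called members per list by adjusted p, and a panel of testis, stress and epigenetic genes; others are marked as picked after their values were seen, among them the 5S ribosomal RNA entries beyond ENSORLG00000029102 and ENSORLG00000021486 and the second entry of a shared symbol. Only a part of the panel is given in the text. The genes, lists and tests were chosen with earlier results of these data known. No sequences were used here. A gene the rule would name is not reported here.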

Additional observations from a re-analysis of the deposited data

Results flagged for a closer look

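The effect of the high dose depended on vitamin C, by the interaction test across all genes (limma, adjusted p below 0.05), for 40 of the genes named above, 24 with a positive and 16 with a negative difference between the effect with vitamin C (set against vitamin C alone) and without it (set against control). The differences are on the log2 scale. Over all 17778 genes tested, 8.08% passed the interaction test. Many of the named genes were chosen by their difference from control or picked after their values were seen. The libraries used for that choice also enter the interaction. The count of 40 therefore depends in part on how the genes were chosen, and it cannot be compared with the share of all genes.

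Some of the plasma protein genes had a larger perchlorate effect with vitamin C. The difference was 3.78 for c3-1 (effects of 5.30 with and 1.52 without vitamin C, adjusted p = 0.00984). It was 3.62 for cp, 3.46 for apoa2, 3.23 for tbt-bp1, 3.22 for fgb and 3.13 for apoa1b. Others did not pass the interaction test, among them cfbl (2.58, adjusted p = 0.0652), fga (2.26, adjusted p = 0.09), c9 (1.45, adjusted p = 0.333) and c3-2 (1.14, adjusted p = 0.277). The genes without a symbol ENSORLG00000028583 and ENSORLG00000024409 had differences of 5.85 and 5.39.

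The kidney and gut epithelium genes picked after their values were seen had a smaller perchlorate effect with vitamin C. The difference was -4.99 for slc12a3 (effects of -0.35 with and 4.63 without vitamin C, adjusted p = 0.00966). It was -3.74 for fabp6, -3.41 for cdh17 and -3.39 for malb. Those named by rule, slc22a6l (-1.96, adjusted p = 0.167) and slc20a1a (-0.88, adjusted p = 0.281), did not pass the interaction test. The digestive protease gene CELA1 had -2.55 and the chemokine gene ccl25b -1.12.

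Some genes high in vitamin C alone gave negative differences, -2.92 for alv (effects of -0.79 with and 2.13 without vitamin C), -2.71 for zpax1 and -2.98 for ctss. Among those that did not pass were zp3b (-1.86, adjusted p = 0.0908), zar1 (-1.44, adjusted p = 0.169) and org (-1.44, adjusted p = 0.191). Some genes with few reads in control gave negative differences too, with -3.30 for plppr3a, -3.12 for fezf1, -2.95 for NTNG1, -2.93 for sox1b and -2.46 for irx3a. PCDH7 (-2.38, adjusted p = 0.0576) and ADGRL2 (-2.95, adjusted p = 0.0862) did not pass. The 5S ribosomal RNA entries ENSORLG00000021149 and ENSORLG00000020942 had -3.48 and -3.01, and ENSORLG00000029102 did not pass (-1.81, adjusted p = 0.0643).

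Some genes that fell at the high dose passed with positive differences, to which that fall itself contributes. Others that fell there did not pass, among them map2k1 (0.81, adjusted p = 0.287), me2 (0.58, adjusted p = 0.409), ptk6b (0.45, adjusted p = 0.553) and piwil2 (0.11, adjusted p = 0.802). The difference was 2.27 for BIRC6 (effects of -0.22 with and -2.49 without vitamin C, adjusted p = 0.0155). The small effect with vitamin C did not mean a return to control. Against control, BIRC6 was at log2 -1.56 in the high dose with vitamin C and at -1.35 in vitamin C alone. The difference was 2.13 for PRRC2C, 1.84 for DNAH10, 1.80 for RAI2, and 1.73 and 1.67 for the TNPO2 entries ENSORLG00000011763 and ENSORLG00000022095. PRRC2C and DNAH10 were likewise low in vitamin C alone (log2 -1.20 and -1.22 against control). The spliceosome genes u2af2a, eftud2 and prpf8 had 1.47, 1.40 and 1.21, the chromatin genes kdm5c and ezh2 1.11 and 0.96, cdk2 0.99, mtf1 1.39, acaca 1.27 and ACLY 0.85. Apoda.2, low in every library given the high dose or vitamin C, had 5.50 (effects of 0.44 with and -5.06 without vitamin C).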

How the results depend on the processing

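Counts against control are given as higher and lower. They were 141 and 121 with a minimum mean of 50, 1402 and 1561 without the low dose libraries, 1735 and 1969 with only the groups compared, 235 and 108 with quantile normalisation, 559 and 74 with scaling on abundant genes, 495 and 350 with edgeR on DESeq2's size factors, 1018 and 915 with DESeq2, 2164 and 2316 with group quality weights, and 113 lower with a 2-fold minimum. Leaving out 1 replicate gave 44 to 609 higher and 1 to 528 lower. Chosen after seeing the data, a fit without replicate 2 of the high dose with vitamin C and control replicate 3 gave 77 and 18. With the replicate block the counts were 454 and 226, and with the block and only the groups compared (also chosen after seeing the data) 2128 and 2146.

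Against the high dose the counts were 2962 and 2225 without the low dose libraries, 1092 lower with only the groups compared, 906 lower with quantile normalisation, 870 and 765 with scaling on abundant genes, 795 lower with edgeR's TMM, 972 lower with edgeR on size factors, 1732 lower with DESeq2, 2285 and 1171 with group weights, and 391 to 1153 higher and 151 to 498 lower leaving out 1 replicate. The block (1184 and 404) changed the call of TNPO2 ENSORLG00000011763 (adjusted p = 0.0566), c1r (adjusted p = 0.0663), ddx4 and dmrt1 among the genes named, and no other. High dose counts against control were 1336 higher with a minimum mean of 50, 4902 higher without the low dose libraries, 5608 and 1846 with scaling on abundant genes, and 2100 to 3330 higher and 2517 to 3534 lower leaving out 1 replicate. The interaction was passed by 5055 genes without the low dose libraries, 3153 with DESeq2, 5048 with group weights and 132 to 1825 leaving out 1 replicate.

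Among the genes named, those that changed sign were never called against control. Cat turned to 0.011 with DESeq2, 0.081 with edgeR's TMM, 0.156 with quantile normalisation and 0.212 with scaling on abundant genes. Leaving out 1 or 2 libraries it ranged from -0.135 to 0.0814, amh ENSORLG00000005044 from -0.0718 to 0.146, ddx4 from -0.105 to 0.117 and 5S ribosomal RNA ENSORLG00000025066 from -0.0184 to 0.378. Ddx4 was -0.0572 with quantile normalisation, and dmc1 was 0.042 and sod1 0.0184 with scaling on abundant genes. The causes were not tested. With 3 libraries a group, the adjusted p of a named gene rests on the spread shared over 15 libraries, and genes near the filter are limited by depth.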
